A study of Mus with 21 samples.

Results

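The wounds compared here were treated with a hydrogel of pH 7.4 that carried either acidic fibroblast growth factor (aFGF, FGF1) or basic fibroblast growth factor (bFGF, FGF2). They are the 3 libraries of 7.4-GelMA/aFGF and the 3 libraries of 7.4-GelMA/bFGF, 6 of the 21 RNA-seq libraries in the study, taken by their labels. All genes were compared, 18806 of 18806 gene symbols, and 15049 had enough counts to be tested. Every mouse was a WT C57BL/6 female, 8 weeks old, with full-thickness punch wounds of 8 mm on the back, and the wounds were sampled on day 4. The hydrogel was gelatin methacryloyl (GelMA), a gelatin that is set into a gel by light. Each scaffold held 200 ng of growth factor and each group 3 mice. No group received the hydrogel without a growth factor. The untreated wounds (control) and the aFGF and bFGF groups at pH 6.4 and 8.4 are used here only as background.

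Both proteins are secreted without a signal peptide, bind heparan sulfate on proteoglycans and signal through FGF receptor tyrosine kinases to the ERK pathway. FGF1 is able to activate all of the signaling FGF receptors and their splice forms, including the receptor form of keratinocytes, whereas FGF2 acts mainly on the receptor forms of mesenchymal and endothelial cells. In skin, FGFs are known to act on keratinocyte migration, fibroblast growth and vessel formation during repair.

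The total counts were 36125256 to 36771838 with aFGF and 36530599 to 37785975 with bFGF, so depth was alike. The tissue label was borne out by its markers. The basal keratinocyte keratin Krt14 was at 1325, 2858 and 2243 CPM (counts scaled to a common library size) in 7.4-GelMA/aFGF replicates 1, 2 and 3 and at 2072, 1995 and 1143 CPM in 7.4-GelMA/bFGF replicates 1, 2 and 3, and the main dermal collagen Col1a1 was at 8883 CPM or more in each library. Values are given in this order of replicates throughout. 3 libraries stood apart from the others in their tissue makeup. 7.4-GelMA/bFGF replicate 3 had little skeletal muscle RNA, with a mean of 2.53 log2 CPM over 29 muscle genes against 8.45 and 8.65 in its group. 7.4-GelMA/aFGF replicate 1 had a high level of T and NK cell genes, 4.46 log2 CPM over 21 genes against 1.98 and 2.06. 7.4-GelMA/aFGF replicate 3 held cartilage, bone and marrow genes far above the other libraries. In the correlation of log2 CPM across genes, which are not independent replicates, 7.4-GelMA/aFGF replicate 3 was closer to 7.4-GelMA/bFGF replicates 1 and 2 (r = 0.970 with each) than to its own group (r = 0.953 and 0.959). 7.4-GelMA/bFGF replicate 3 was farthest from its own group (r = 0.932 and 0.923). The other libraries of that group, 7.4-GelMA/bFGF replicates 1 and 2, were the closest pair of the 6 libraries (r = 0.986). Fewer genes had an unadjusted p under 0.05 when either of them was left out, as given below. Why these 2 libraries were so alike was not tested. In a bulk sample, more cells of one type and more RNA per cell cannot be told apart, and this holds for every level below.

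The question of this comparison was whether the 2 growth factors leave different transcriptomes in the wound at neutral pH. Epithelial regulators and keratinocyte genes such as Barx2, Vdr and Aqp3 were higher with aFGF, and the macrophage elastase gene Mmp12 and the fibroblast gene Lrrc15 were lower, but with 3 libraries per group no gene passed the test. With edgeR's quasi-likelihood test, 0 of 15049 genes (0.0%) passed both thresholds, a p under 0.05 after Benjamini-Hochberg adjustment and a difference beyond 0.58 on the log2 scale, and the smallest adjusted p was 0.110. At an unadjusted p under 0.05 there were 1960 genes (13.0%), of which 988 (6.57%) were higher with aFGF and 972 (6.46%) were lower. Over all genes 7268 (48.3%) had a log2 fold change above 0. In 3130 genes (20.8%) the groups did not overlap, with 1473 (9.79%) higher and 1657 (11.0%) lower. DESeq2 called 264 of 15801 genes (1.67%), 149 higher (0.943%) and 115 lower (0.728%). On simulated libraries of the same 2 groups with no true difference DESeq2 called 35 genes and edgeR called 0. Those counts were drawn gene by gene from edgeR's own estimates of spread, without shifts shared by many genes of a library. They favor edgeR's model and cannot rank the 2 tools on the real libraries. With 1 library left out, the share of all genes at an unadjusted p under 0.05 was 4.4, 5.82 and 9.07% without aFGF replicates 1, 2 and 3 and 3.0, 3.7 and 8.09% without bFGF replicates 1, 2 and 3 for genes that were higher with aFGF, and 4.32, 5.33 and 8.71% without aFGF replicates 1, 2 and 3 and 3.44, 3.64 and 7.12% without bFGF replicates 1, 2 and 3 for genes that were lower. Both shares were lowest without bFGF replicate 1. For gene lists below, a range of medians or a series of counts that names libraries refers to these fits. The words higher and lower below describe levels, and no gene is claimed to have changed.

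The 12 named genes higher with aFGF had the smallest p among genes above 5 CPM, past the fold threshold and with groups that do not overlap. That their groups were apart was thus set by the rule that chose them. The set was led by Barx2, a homeobox transcription factor of epithelia and muscle. Barx2 was at 9.61, 10.6 and 11.5 CPM with aFGF and at 2.25, 2.13 and 2.2 CPM with bFGF, a log2 fold change of 2.25 ± 0.17 (SE). The bFGF libraries were low and close together, and control wounds lay at 2.48 to 5.98 CPM. Tfap2a, the AP-2α factor of epidermal development, was at 13, 16.1 and 14 against 7.18, 6.71 and 6.6 CPM (log2 fold change 1.07 ± 0.15). Hopx, a homeodomain protein found in follicular stem cells and differentiating keratinocytes, was at 47.4, 45.9 and 53.9 against 27.8, 27.7 and 27.8 CPM (0.82 ± 0.09 on the log2 scale). Vdr encodes the vitamin D receptor, a regulator of keratinocyte differentiation and the hair cycle. Its level was 84.3, 77.6 and 41.6 CPM with aFGF and 16.8, 19 and 17.8 CPM with bFGF, and the log2 fold change was 1.93 ± 0.28. Replicate 3 was the nearest of the aFGF libraries to the bFGF libraries.

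Aqp3, Tns4, S100a10 and Lmna were part of the same set. Aqp3, the water and glycerol channel of basal keratinocytes, was at 243, 166 and 136 CPM with aFGF and 54, 47 and 26.4 CPM with bFGF (log2 fold change 2.10 ± 0.34). Tns4, a tensin of epithelial focal adhesions, was at 56.2, 66.4 and 47.8 against 21, 27.8 and 16 CPM (1.40 ± 0.23). The nearest libraries of the groups were at 136 and 54 CPM for Aqp3 and at 47.8 and 27.8 CPM for Tns4. S100a10, the partner of annexin A2, was at 400.2, 332 and 353 against 237, 227 and 221 CPM (0.67 ± 0.11). Lmna, which encodes the A-type lamins of the nuclear envelope, was at 817, 638 and 700.3 CPM with aFGF and 322, 347 and 334 CPM with bFGF (1.11 ± 0.13). Control wounds (436 to 495 CPM) lay between both groups.

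The other members served growth and metabolism. Slc7a5, the large neutral amino acid transporter, was at 58.2, 71.7 and 55.9 against 32.8, 37.6 and 36.3 CPM (0.80 ± 0.13), and Got1, the cytosolic aspartate aminotransferase, at 144, 119.6 and 89.5 against 49.1, 58.9 and 51.5 CPM (1.16 ± 0.19). Rrp12, a factor of ribosome assembly, was at 35.9, 36.8 and 31 against 21, 23.2 and 20.1 CPM (0.70 ± 0.12). For Sphk1, the kinase that makes sphingosine 1-phosphate, the levels were 92.6, 77.9 and 55.1 and 28, 32.7 and 36 CPM (1.23 ± 0.22). The groups of these 4 genes did not overlap, as the rule required.

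**Figure D1:**
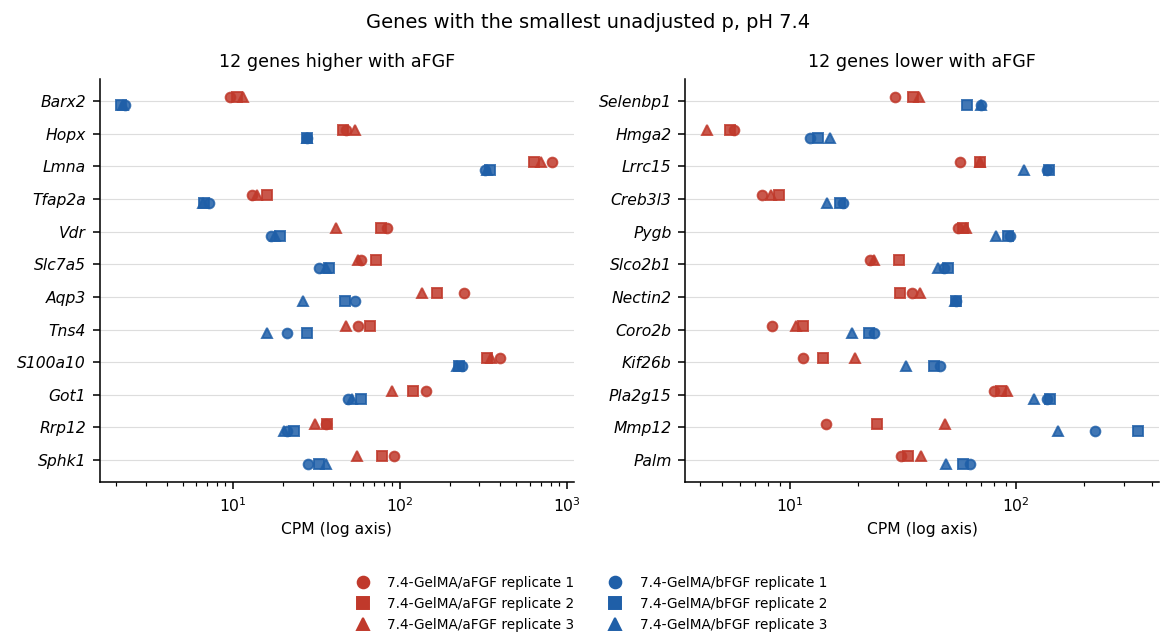
CPM on a log axis of the 12 genes higher and the 12 genes lower with aFGF that had the smallest unadjusted p, one point per library, with red for 7.4-GelMA/aFGF and blue for 7.4-GelMA/bFGF. The groups do not overlap in any of the 24 genes, which was part of the rule that chose them, and Barx2 and Mmp12 show the widest gaps.

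Mmp12, the elastase of macrophages, had the largest difference among the 12 genes that were lower with aFGF, chosen by the same rule. It was at 14.4, 24.3 and 48.5 CPM with aFGF and 224, 345 and 154 CPM with bFGF, a log2 fold change of -3.05 ± 0.52. The spread inside each group was wide, and the nearest libraries of the groups were at 48.5 and 154 CPM. Control wounds spanned 82.7 to 291 CPM. Hmga2, a chromatin protein of growing mesenchymal cells, was at 5.66, 5.43 and 4.26 against 12.2, 13.3 and 15 CPM (-1.39 ± 0.19), and both groups lay above control wounds (1.32 to 2.65 CPM).

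Genes of fibroblasts and of the cytoskeleton were also in this set. Lrrc15, a membrane protein of activated fibroblasts, was at 56.2, 69.4 and 69.3 against 136, 140.4 and 108 CPM (-0.98 ± 0.14). Kif26b, a kinesin family member, was at 11.4, 14 and 19.3 against 45.9, 43.5 and 32.4 CPM (-1.44 ± 0.23), and the actin-binding coronin Coro2b at 8.26, 11.4 and 10.6 against 23.4, 22.3 and 18.8 CPM (-1.08 ± 0.17). The groups of these 3 genes were apart, as the rule required. The adhesion protein Nectin2 was at 34.7, 30.5 and 37.7 against 54, 54.3 and 53.5 CPM (-0.65 ± 0.10) and the membrane-shaping protein Palm at 31.1, 33.3 and 38 against 62.7, 57.9 and 48.8 CPM (-0.72 ± 0.13).

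The remaining 5 genes belong to metabolism and secretion. Selenbp1, a selenium-binding methanethiol oxidase, was at 29.2, 35.1 and 37.1 against 69.7, 60.4 and 70.0 CPM (-0.98 ± 0.12), with control at 47.9 to 79.3 CPM. Log2 fold changes were -0.96 ± 0.14 for the membrane-bound transcription factor Creb3l3, -0.62 ± 0.09 for the glycogen phosphorylase Pygb, -0.91 ± 0.14 for the organic anion transporter Slco2b1 and -0.63 ± 0.10 for the lysosomal phospholipase Pla2g15. Their aFGF libraries were tightly grouped, for example 55.3, 57.9 and 60.1 CPM for Pygb. Among genes of low level, DESeq2 placed the peptide hormone gene Cck at 0.616, 0.493 and 1.13 against 5.29, 4.09 and 8.35 CPM and the hydroxylysine kinase gene Hykk at 1.26, 1.64 and 1.54 against 4.98, 4.74 and 3.97 CPM among the 5 smallest p of genes lower with aFGF.

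All 24 genes passed with DESeq2 and 6 passed with edgeR when all 21 libraries were used to estimate the spread. Over those 21 libraries 12 genes passed in all. They were Lmna, Tns4, Tfap2a, Aqp3, Lypd3, Barx2, Mmp19, Tmem198b and Tead4, which were higher with aFGF, and Pla2g15, Fmo2 and Jkamp, which were lower. This list was looked up after its values were seen. The edgeR adjusted p of the 24 genes lay between 0.110 and 0.351.

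The libraries at pH 6.4 and pH 8.4 are other samples, so they show whether the same genes also separate aFGF from bFGF there. Of the 12 genes higher with aFGF at pH 7.4, 9 did not overlap in the same direction at pH 6.4 (7.64% of all genes tested did) and 8 at pH 8.4 (13.7%). Vdr, Aqp3, Tns4, Got1 and Sphk1 did so at both. Aqp3 was at 111 to 155 CPM with aFGF and 36.8 to 66.5 CPM with bFGF at pH 6.4, and at 129.6 to 213 and 41.5 to 77.2 CPM at pH 8.4. Vdr was at 33.6 to 65.5 against 20.6 to 26.7 CPM at pH 6.4 and at 35.4 to 54.3 against 14.9 to 26.3 CPM at pH 8.4. Lmna overlapped at pH 6.4 (575 to 787 against 465 to 591 CPM) and not at pH 8.4 (721 to 854 against 371 to 395 CPM).

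Of the 12 genes lower with aFGF, 2 did not overlap in the same direction at pH 6.4 (7.33% of all genes tested) and 8 at pH 8.4 (13.7%). The genes at pH 6.4 were Mmp12 and Nectin2. Mmp12 was at 17.5 to 54.6 CPM with aFGF and 91.7 to 277 CPM with bFGF at pH 6.4, and at 16.7 to 31.1 and 55.5 to 111 CPM at pH 8.4. Hmga2 overlapped at pH 6.4 (4.3 to 10.2 against 8.17 to 10.4 CPM) and not at pH 8.4 (5.16 to 6.17 against 8.97 to 16 CPM). Over all genes, 242 of the 1473 that were apart and higher at pH 7.4 were so at pH 6.4 too, which is 16.4% of the first set and 21.0% of the second, and 647 were so at pH 8.4, which is 43.9% and 31.3%. For lower genes the counts were 272 (16.4% and 24.7%) and 691 (41.7% and 33.5%). Whether the aFGF libraries or the bFGF libraries also share a day of preparation is not given in the sources used here. Replicate 2 of each group at pH 8.4 held many genes high in that library alone, as given below.

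**Figure D2:**
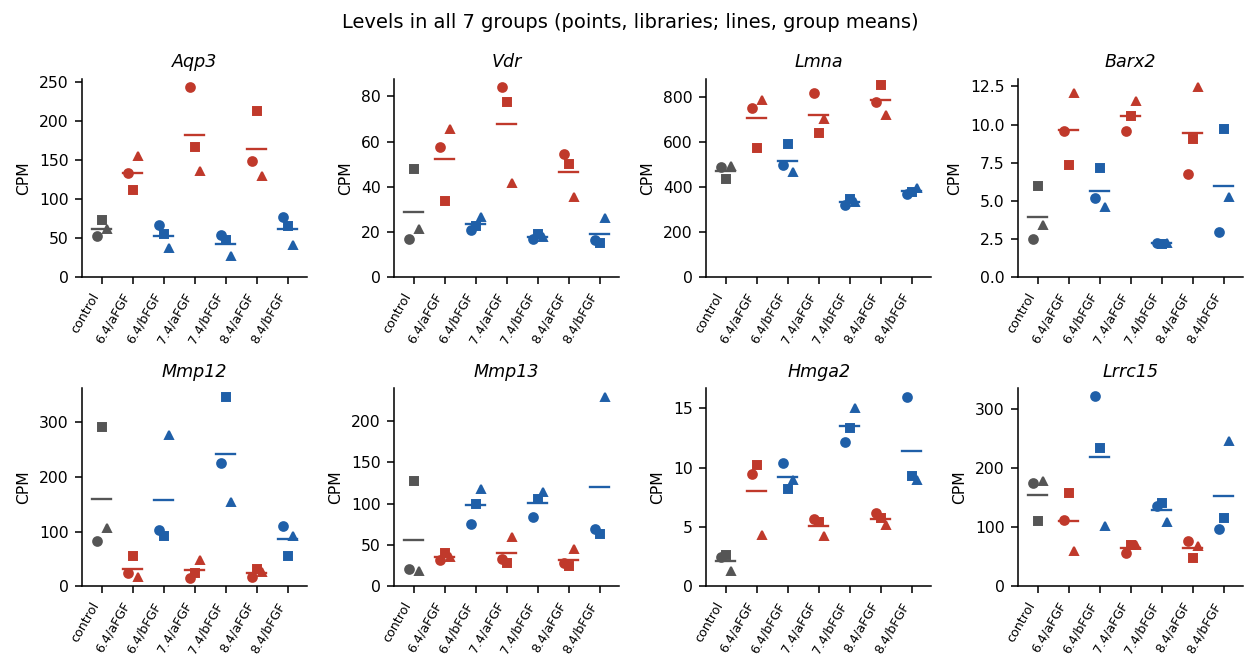
CPM of 8 genes in control wounds and in the aFGF (red) and bFGF (blue) groups at pH 6.4, 7.4 and 8.4, one point per library (circle, square and triangle for replicates 1, 2 and 3) with a line at the group mean. Aqp3, Vdr and Mmp12 separate aFGF from bFGF at every pH, whereas Lmna, Barx2 and Hmga2 do so at 2 of the 3 pH values.

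A difference between the growth factor contrast at pH 7.4 and that at another pH was tested directly. 0 of 15449 genes passed for pH 7.4 minus pH 6.4 with edgeR, with 941 (6.09%) at an unadjusted p under 0.05, and DESeq2 called 28. 0 of 15502 passed for pH 7.4 minus pH 8.4, with 734 (4.73%) at an unadjusted p under 0.05, and DESeq2 called 4, Gbp2b, Hmox1, Pdpn and Wfdc17. Barx2 had an interaction of 1.47 ± 0.31 on the log2 scale against pH 6.4 (adjusted p = 0.765, edgeR) and 1.59 ± 0.52 against pH 8.4 (adjusted p = 0.993, edgeR).

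Most transcripts of the FGF system itself overlapped between the groups. Fgf1 was at 8.4, 6.44 and 11.7 CPM with aFGF and 15.9, 16.9 and 6.0 CPM with bFGF, and Fgf2 at 5.66, 11.3 and 4.15 and 5.06, 4.66 and 5.69 CPM. These are the mouse's own transcripts and say nothing of the protein in the gel. Fgf7, the keratinocyte growth factor of dermal fibroblasts, was at 35.3, 60.5 and 43.8 against 48.5, 54.3 and 85.9 CPM. Over the 12 ligands tested, 4 were higher and 8 lower, with a median log2 fold change of -0.40 beside -0.013 over all genes, and none had an unadjusted p under 0.05. Groups were apart in Fgf5, with a mean of 0.378 against 0.163 CPM, and in Fgf11, with 3.26 against 6.67 CPM. These are 8.33% of the list higher (9.79% of all genes) and 8.33% lower (11.0% of all genes). The median of the ligands lay between -0.38 (without aFGF replicate 3) and -0.18 (without aFGF replicate 1).

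The receptors and their co-receptors overlapped for the most part. Fgfr1, the main receptor of fibroblasts, was at 211, 237 and 257 CPM with aFGF and 289, 299.9 and 251 CPM with bFGF. Fgfr2 was at 21.4, 14.7 and 11.4 against 10.7, 10.1 and 33.4 CPM and Fgfr3 at 8.94, 23.1 and 25 against 11.6, 13.9 and 6.52 CPM. Fgfr4 stayed near 1 CPM, at 0.364, 1.37 and 2.31 against 2.38, 1.56 and 0.257 CPM. Groups overlapped in each of these 4 receptors. Of the 13 members tested, 1 (7.69%, near the 6.57% of all genes) was higher with aFGF at an unadjusted p under 0.05, the heparan sulfate proteoglycan gene Sdc4. None was lower at that p. Sdc4 was at 579, 305 and 224 CPM with aFGF and 159, 181 and 188 CPM with bFGF (log2 fold change 1.08 ± 0.35, unadjusted p = 0.0209), and aFGF replicate 1 was the highest library. Sdc4 and the proteoglycan gene Sdc1 were the members whose groups did not overlap (15.4%, against 9.79% of all genes, with aFGF higher). The median of the list was -0.066, and it lay between -0.15 (without bFGF replicate 1) and 0.12 (without bFGF replicate 3).

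Feedback inhibitors and targets of the ERK pathway serve as a readout of FGF signaling. Dusp6, the ERK phosphatase, was at 104, 103 and 99.1 CPM with aFGF and 79.9, 82.9 and 119 CPM with bFGF. Spry2 was at 36.3, 25.9 and 18.3 against 24, 28 and 21.4 CPM and Spry4 at 7.79, 9.6 and 5.14 against 8.28, 9.37 and 16.5 CPM, and the sprouty gene Spry1 at 15.6, 26.9 and 17.1 against 20.4, 21.5 and 25.5 CPM. The ETS factors Etv4 and Etv5 were at 3.73, 7.98 and 8.8 against 8.05, 11.5 and 9.78 CPM and at 22, 26.9 and 23.4 against 26.5, 27.4 and 27.5 CPM. None of these 6 genes kept the groups apart. Of the 16 genes of the list, 7 were higher and 9 lower, and the median was -0.093. Epha2 alone (6.25%, near the 6.57% of all genes) had an unadjusted p under 0.05 (0.0351, edgeR), with aFGF higher. Groups were apart in the ETS factor gene Etv1 alone (6.25%, against 11.0% of all genes lower), with a mean of 9.56 CPM with aFGF and 13.6 CPM with bFGF. With 1 library left out the median lay between -0.14 (without bFGF replicate 2) and 0.024 (without bFGF replicate 3).

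**Figure D3:**
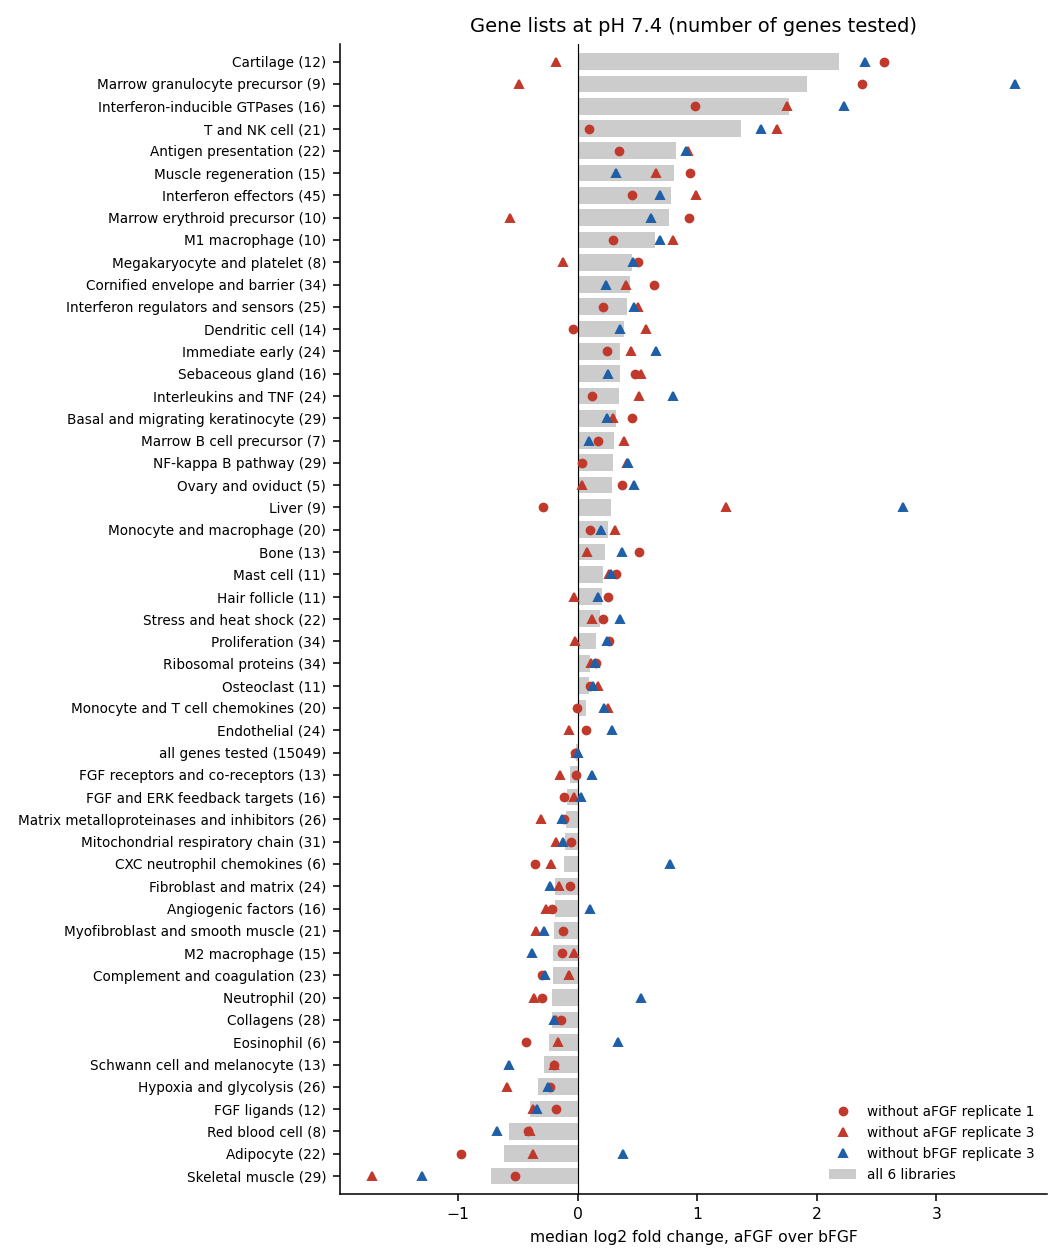
Median log2 fold change of aFGF over bFGF for 50 gene lists and for all genes tested (grey bars, number of genes tested in brackets), with the median when 1 library is left out (points). The bars of cartilage, marrow granulocyte, marrow erythroid, liver, adipocyte and neutrophil genes turn to the other sign when 1 library is left out, while those of collagens and ribosomal proteins keep their sign.

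Interferon effectors and interferon-inducible GTPases were higher with aFGF in nearly every member. Of 45 interferon effectors, 44 were higher with aFGF, 26 (57.8%, against 6.57% of all genes) had an unadjusted p under 0.05 and 18 (40.0%, against 9.79%) did not overlap. The median log2 fold change was 0.78, between 0.45 (without aFGF replicate 1) and 0.99 (without aFGF replicate 3). Genes at an unadjusted p under 0.05 numbered 15, 21 and 37 without aFGF replicates 1, 2 and 3 and 10, 20 and 14 without bFGF replicates 1, 2 and 3. By the mean of the list, aFGF replicate 3 (5.67 log2 CPM) lay level with bFGF replicate 2 (5.67 log2 CPM). Isg15, a ubiquitin-like modifier, was at 166, 119 and 74.9 CPM with aFGF and 45.3, 64 and 53.3 CPM with bFGF. Oas3, a sensor of double-stranded RNA, was at 139, 84.1 and 95.3 against 45.1, 61.5 and 65.9 CPM (log2 fold change 0.89 ± 0.24) and the E3 ligase gene Rnf213 at 803, 478 and 367 against 228, 300.4 and 249.9 CPM (1.09 ± 0.31). In all 3 genes 7.4-GelMA/aFGF replicate 1 was the highest library. Oas3 and Rnf213 are among the genes the study picked from these libraries, so they are not independent evidence.

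The interferon-inducible GTPases, which act against intracellular microbes, had a median log2 fold change of 1.77, with 16 of 16 higher and 12 (75%, against 6.57% of all genes) at an unadjusted p under 0.05. That count was 3, 17 and 6 without aFGF replicates 1, 2 and 3 and 3, 4 and 15 without bFGF replicates 1, 2 and 3. With a library left out the filter changed, and these fits tested 16, 17 and 16 and 17, 17 and 17 genes of the list. Groups were apart in only 3 of the 16 genes (18.8%, against 9.79% of all genes). The mean of the list was 7.13, 4.55 and 6.20 log2 CPM with aFGF and 4.08, 4.29 and 5.17 with bFGF. By this mean aFGF replicate 2 lay inside the bFGF range. Irgm1 was at 281, 100.3 and 153 CPM with aFGF and 54.4, 66.9 and 75.3 CPM with bFGF (1.45 ± 0.38), and Gbp2 at 582, 102 and 591 against 52.6, 77.9 and 186 CPM (2.01 ± 0.76). Gbp2 was high in aFGF replicates 1 and 3 and inside the bFGF range in replicate 2, and its groups overlapped. Among regulators, Irf5 was at 166, 113 and 117 against 73.5, 73.1 and 73.1 CPM (0.86 ± 0.17) and Stat2 at 193, 120.3 and 121 against 79, 90.0 and 76.6 CPM (0.83 ± 0.21), both apart. Members of the Gbp, Irg and MHC families share near-identical stretches, and how shared reads were counted is not given in the sources used here, so their single values are uncertain.

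Antigen presentation genes went in the same direction. The mean of the list was 8.67, 7.17 and 7.56 log2 CPM with aFGF and 6.84, 7.05 and 7.22 with bFGF. By this mean aFGF replicate 2 lay inside the bFGF range. All 22 members were higher with aFGF, 10 (45.5%, against 6.57% of all genes) had an unadjusted p under 0.05, and the median was 0.82. The count was 6, 16 and 7 without aFGF replicates 1, 2 and 3 and 0, 1 and 8 without bFGF replicates 1, 2 and 3. The MHC class II gene H2-Ab1 was at 2341, 613 and 718 CPM with aFGF and 338, 373 and 492 CPM with bFGF (1.62 ± 0.55). The class I light chain B2m was at 3270.1, 1826 and 1786 against 1578, 1709 and 1711 CPM. In both genes aFGF replicate 1 was far above the other 5 libraries, and aFGF replicates 2 and 3 were nearer to the bFGF libraries and above all of them.

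Among the 6 libraries T and NK cell genes were high in that library alone, and of the control wounds replicate 2 was high as well (3.50 log2 CPM on average against 1.75 and 1.94). All 21 genes tested were higher with aFGF, with a median of 1.36, which became 0.093 without 7.4-GelMA/aFGF replicate 1. Cd3e, a chain of the T cell receptor complex, was at 11.7, 1.4 and 1.04 against 0.434, 0.911 and 0.743 CPM. The interferon-γ-induced chemokine Cxcl9 was at 493, 16.8 and 129 against 6.64, 8.69 and 42.3 CPM, with overlap. Cd4, which macrophages of the mouse can also carry at low level, was less tied to replicate 1, at 35.7, 34.3 and 17.2 against 11.7, 15.4 and 16.3 CPM (1.01 ± 0.31).

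Without 7.4-GelMA/aFGF replicate 1 the medians were 0.45 for interferon effectors, 0.98 for the GTPases and 0.34 for antigen presentation. The part of T and NK cell RNA in these lists was not tested. At the other pH values the same lists had medians of 0.019 (effectors) and -0.079 (GTPases) at pH 6.4 and of 0.54 and -0.24 at pH 8.4, as log2 differences of aFGF from bFGF.

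**Figure D4:**
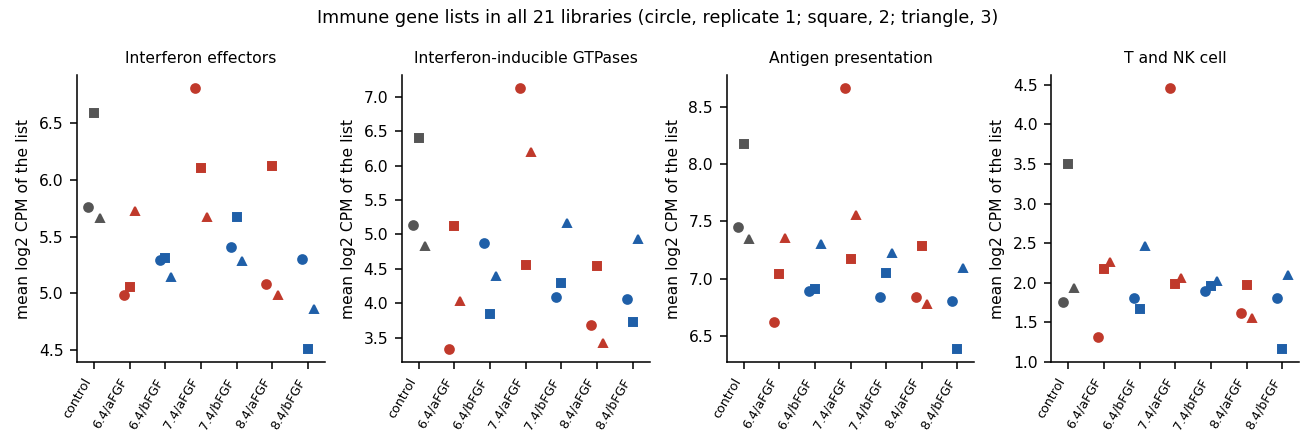
Mean log2 CPM of 4 immune gene lists in all 21 libraries by group, with control in grey, aFGF in red and bFGF in blue. Replicate 1 of 7.4-GelMA/aFGF (red circle) is the highest of all libraries in each list, and control replicate 2 (grey square) is high in all 4 lists as well.

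Signals of inflammation were mixed. Il1r2, the decoy receptor that binds interleukin 1, was at 303, 299 and 303 CPM with aFGF and 207, 198 and 211 CPM with bFGF, a log2 fold change of 0.56 ± 0.09, and both groups were tight. The aFGF libraries lay above control wounds (30.7 to 292 CPM) and the bFGF libraries inside their range. The keratinocyte cytokine Il24 was at 5.71, 8.22 and 4.18 against 1.53, 2.26 and 1.52 CPM (1.75 ± 0.34) and kept the groups apart. Il1b was at 920.3, 501 and 523 against 188, 249.9 and 979 CPM and overlapped, since bFGF replicate 3 was as high as aFGF replicate 1. Of 24 interleukin and TNF family genes 19 were higher and 3 (12.5%, against 6.57% of all genes) had an unadjusted p under 0.05. The count was 2, 2 and 5 without aFGF replicates 1, 2 and 3 and 2, 2 and 9 without bFGF replicates 1, 2 and 3. The median of 0.35 lay between 0.12 (without aFGF replicate 1) and 0.80 (without bFGF replicate 3). Il15 was at 16.1, 13.5 and 16.4 against 12.2, 11.1 and 16 CPM and Tnfsf14 at 49.7, 31 and 64.6 against 53.2, 46.6 and 31 CPM, with overlap in both.

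In the NF-κB pathway 26 of 29 genes were higher with aFGF and 4 (13.8%, against 6.57%) had an unadjusted p under 0.05, or 2, 4 and 10 without aFGF replicates 1, 2 and 3 and 1, 1 and 6 without bFGF replicates 1, 2 and 3. The list had a median of 0.30 that became 0.039 without 7.4-GelMA/aFGF replicate 1. Map3k14, the kinase of the alternative NF-κB pathway, was at 43.3, 37.7 and 41.5 against 26.6, 25.9 and 30.7 CPM (0.56 ± 0.11). Immediate early genes had 6 of 24 (25%, against 6.57%) at an unadjusted p under 0.05, or 4, 4 and 9 without aFGF replicates 1, 2 and 3 and 4, 4 and 12 without bFGF replicates 1, 2 and 3. Their median of 0.36 lay between 0.19 (without bFGF replicate 1) and 0.65 (without bFGF replicate 3). The flow-responsive factor Klf2 was at 150.0, 148 and 152 against 109.6, 113 and 95.5 CPM (0.51 ± 0.10) and the nuclear receptor Nr4a3 at 72.4, 50.3 and 14.3 against 4.55, 12 and 14.3 CPM (2.16 ± 0.68). Junb, by contrast, was highest in bFGF replicate 3, at 742, 601 and 599.9 against 335, 398 and 764 CPM.

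Macrophage genes gave small differences for the most part. The list of 20 monocyte and macrophage genes had a median of 0.25, between 0.11 (without aFGF replicate 1) and 0.31 (without aFGF replicate 3). Ccr7, which the study stained as a marker of M1 macrophages, was at 33.1, 16.1 and 18.7 against 9.46, 16 and 16.1 CPM, and Mrc1, the gene of the M2 marker CD206, at 682, 1372 and 497 against 999, 859 and 627 CPM. Ccr7 was above the bFGF range by a narrow margin in aFGF replicate 2, and Mrc1 overlapped widely. The costimulatory gene Cd86 was at 84.7, 48.7 and 38.2 against 20.3, 23.4 and 32.4 CPM (1.18 ± 0.34). M1 genes had a median of 0.65, between 0.30 (without aFGF replicate 1) and 0.83 (without aFGF replicate 2). M2 genes had a median of -0.20, between -0.51 (without aFGF replicate 2) and -0.032 (without aFGF replicate 3). Marco, a scavenger receptor, was at 33.6, 7.92 and 66.2 against 10.3, 7.1 and 11.1 CPM and overlapped.

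Neutrophil genes rested on 7.4-GelMA/bFGF replicate 3, where the calprotectin subunit S100a8 was at 4350.5 CPM against 1344 and 1679 CPM in its group. The median of -0.21 over 20 genes became 0.53 without that library. The chemokine Cxcl2 was at 359, 171 and 367 CPM with aFGF and 69.9, 77.8 and 882 CPM with bFGF. In mast cells and basophils, the basophil protease gene Mcpt8 was at 2.44, 3.04 and 3.0 against 0.767, 0.599 and 1.29 CPM (1.62 ± 0.37), with the groups apart.

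Matrix genes leaned towards bFGF. Of 28 collagen genes and enzymes, 22 were lower with aFGF, 4 (14.3%, against 6.46% of all genes) had an unadjusted p under 0.05, and the median was -0.22, between -0.23 (without aFGF replicate 2) and -0.14 (without aFGF replicate 1). The count was 3, 4 and 10 without aFGF replicates 1, 2 and 3 and 2, 2 and 6 without bFGF replicates 1, 2 and 3. The anchoring fibril collagen Col7a1 was at 28.8, 34.2 and 36.2 CPM with aFGF and 62, 77.4 and 38.8 CPM with bFGF (-0.84 ± 0.25), and Col16a1 at 139, 178 and 171 against 228, 239.6 and 205 CPM (-0.46 ± 0.13). Col1a1 was at 8883, 10138 and 11040.4 against 10541, 11769.5 and 12104 CPM and Col3a1 at 16509, 20232 and 15815 against 17604, 19924 and 19601 CPM, and the groups of both overlapped.

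Among fibroblast and matrix genes, 17 of 24 were lower and 3 (12.5%, against 6.46%) had an unadjusted p under 0.05 in that direction, or 1, 8 and 3 without aFGF replicates 1, 2 and 3 and 1, 1 and 3 without bFGF replicates 1, 2 and 3. With aFGF higher, 1 gene (4.17%, against 6.57%) had such a p. In the same fits that count was 1, 1 and 3 and 1, 1 and 3. The proteoglycan Dcn was at 1558, 2069 and 1703 against 2436, 2631 and 2537 CPM (-0.51 ± 0.14). The PDGF receptors were lower too, with Pdgfra at 189.9, 316 and 284 against 411, 526 and 329 CPM (-0.68 ± 0.24) and Pdgfrb at 69.6, 79.7 and 173 against 194, 204 and 199.6 CPM (-0.89 ± 0.34), although aFGF replicate 3 of Pdgfrb came near the bFGF libraries. Vcan, which encodes versican, went the other way, at 482, 445 and 450.5 against 311, 311 and 312 CPM (0.57 ± 0.09). The 3 bFGF libraries of Vcan were nearly equal. Myofibroblast and smooth muscle genes had 17 of 21 lower, and their median of -0.20 lay between -0.35 (without aFGF replicate 3) and -0.12 (without aFGF replicate 1). Acta2, the α-smooth muscle actin that the study stained, was at 153, 189 and 192 against 225, 199 and 186 CPM and overlapped, and the contractile gene Tagln was at 75.6, 91.2 and 80.1 against 145, 113 and 91.9 CPM (-0.50 ± 0.18).

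The metalloproteinases split by member. Mmp12 was lower with aFGF as given above. Mmp13, the collagenase of wound stroma, was at 33.4, 28.6 and 59.8 against 84.2, 105 and 114 CPM (-1.31 ± 0.29) and was apart at pH 6.4 (31.7 to 40.3 against 76 to 118 CPM) and pH 8.4 (24 to 44.8 against 62.9 to 229 CPM) as well. The gelatinase Mmp9 was at 210.4, 202 and 371 against 450.0, 382 and 626 CPM (-0.90 ± 0.30). Mmp19 went the opposite way, at 847, 434 and 429 against 164, 199 and 178 CPM (1.67 ± 0.30), and the inhibitor Timp3 was at 224, 185 and 191 against 119, 140.1 and 113 CPM (0.69 ± 0.13). In the list of 26 genes, 2 had an unadjusted p under 0.05 with aFGF higher and 7 (26.9%, against 6.46% of all genes) with aFGF lower. The latter count was 3, 8 and 6 without aFGF replicates 1, 2 and 3 and 6, 7 and 5 without bFGF replicates 1, 2 and 3. In the same fits the count with aFGF higher was 2, 2 and 5 and 2, 2 and 6. Without bFGF replicate 3 more members were thus higher than lower at that p.

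Most vessel markers overlapped while some angiogenic factors were lower with aFGF. Pecam1, the gene of the CD31 antigen that the study stained, was at 241, 214 and 264 CPM with aFGF and 205, 160.0 and 322 CPM with bFGF, and 24 endothelial genes had a median of 0.0093, with 12 higher and 12 lower. Without bFGF replicate 3, 21 of the 24 were higher with aFGF, 8 of them at an unadjusted p under 0.05 (8.09% of all genes were), and the median was 0.29. Without bFGF replicate 2 it was -0.15, with 4 higher. Tek, the angiopoietin receptor, was at 17.9, 24.3 and 22.4 against 36.7, 34.6 and 42.1 CPM (-0.81 ± 0.15). Its ligand gene Angpt1 was at 8.04, 7.37 and 7.92 against 12, 9.68 and 13.8 CPM (-0.60 ± 0.18) and Vegfb at 16.4, 14.4 and 18.1 against 22, 22 and 24.7 CPM (-0.48 ± 0.13). Of 16 angiogenic factors and receptors 5 (31.2%, against 6.46% of all genes) had an unadjusted p under 0.05 with aFGF lower and 1 with aFGF higher. The count of lower genes was 3, 5 and 2 without aFGF replicates 1, 2 and 3 and 2, 3 and 4 without bFGF replicates 1, 2 and 3. The direction of the list turned without bFGF replicate 3, with 5 genes higher and 4 lower at that p. In that fit the median was 0.098, against -0.19 over all 6 libraries. The endothelial early response gene Apold1 was at 18.1, 17.3 and 11.3 against 11.1, 9.79 and 48.2 CPM, with bFGF replicate 3 alone high.

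On the epidermal side, 21 of 29 basal and migrating keratinocyte genes were higher with aFGF and 6 (20.7%, against 6.57% of all genes) had an unadjusted p under 0.05, while 2 (6.9%, against 6.46%) were lower at that p. The count of higher genes was 7, 3 and 7 without aFGF replicates 1, 2 and 3 and 3, 6 and 5 without bFGF replicates 1, 2 and 3, and the median of 0.32 lay between 0.15 (without aFGF replicate 2) and 0.45 (without aFGF replicate 1). Itga5, the fibronectin receptor chain that keratinocytes gain in wounds, was at 537, 406 and 442 CPM with aFGF and 222, 252 and 284 CPM with bFGF (0.88 ± 0.16), and the laminin receptor chain Itga3 at 65.9, 73.5 and 50.2 against 34, 39 and 29.8 CPM (0.89 ± 0.18). The EGF receptor ligand Areg was at 21, 20.5 and 9.24 against 8.51, 6.06 and 8.03 CPM (1.17 ± 0.35). All 3 genes were apart. Lama3, a chain of laminin 332, was lower with aFGF at 34.6, 48.6 and 33.1 against 60.2, 61.4 and 52.2 CPM (-0.57 ± 0.17). Krt14, as given above, overlapped.

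Genes of the cornified layer were higher with aFGF in 31 of 34 members (median 0.44), but only 2 had an unadjusted p under 0.05. The median lay between 0.16 (without aFGF replicate 2) and 0.64 (without aFGF replicate 1). Higher members numbered 33, 23 and 31 without aFGF replicates 1, 2 and 3 and 32, 33 and 24 without bFGF replicates 1, 2 and 3. Tgm3, the transglutaminase of terminal differentiation, was at 14.6, 34.3 and 27.3 against 10.7, 13.8 and 12 CPM (1.06 ± 0.31). The suprabasal keratin Krt1 was at 162, 467 and 349 against 258, 229 and 103 CPM and filaggrin (Flg) at 32.3, 69.3 and 46.4 against 38.5, 23.6 and 10.8 CPM. Both varied more than 2-fold inside each group and overlapped. In the hair follicle list, where 11 of 29 genes were tested, Sox9 was at 12.4, 7.59 and 10.9 against 5.57, 3.98 and 5.2 CPM (1.06 ± 0.25) and the sheath gene Tchh at 3.64, 6.63 and 3.82 against 6.9, 16.3 and 15.4 CPM (-1.44 ± 0.41).

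Some coagulation and stress genes differed in level. Of 23 complement and coagulation genes, 2 (8.7%, against 6.57% of all genes) were higher with aFGF at an unadjusted p under 0.05. At that p 3 (13.0%, against 6.46%) were lower. Thbd, thrombomodulin of endothelium and keratinocytes, was at 591, 549.7 and 298 CPM with aFGF and 139, 110.1 and 230.5 CPM with bFGF (1.59 ± 0.37), and the protein C receptor gene Procr at 182, 154 and 67.5 against 55.5, 50.5 and 59.1 CPM (1.30 ± 0.36). Aside from these, 15 of 23 complement and coagulation genes were lower with aFGF, among them the inhibitor Tfpi at 36.2, 49.5 and 43.5 against 64.8, 74.7 and 57.8 CPM (-0.60 ± 0.15). In the stress list 18 of 22 genes were higher and 6 (27.3%, against 6.57% of all genes) had an unadjusted p under 0.05, or 6, 5 and 5 without aFGF replicates 1, 2 and 3 and 2, 5 and 8 without bFGF replicates 1, 2 and 3. Atf4, the factor of the amino acid response, was at 244, 234 and 208 against 154, 149 and 181 CPM (0.51 ± 0.13) and was apart at all 3 pH values. Ribosomal protein genes were higher in 31 of 34 members by a small amount (median 0.11, between 0.075 (without aFGF replicate 2) and 0.15 (without aFGF replicate 1)), and 0 had an unadjusted p under 0.05.

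Energy genes leaned towards bFGF in direction, with few at an unadjusted p under 0.05. Of 26 hypoxia and glycolysis genes 20 were lower (median -0.33), and 2 (7.69%, near the 6.46% of all genes) were lower at that p. The count was 1, 2 and 16 without aFGF replicates 1, 2 and 3 and 1, 2 and 1 without bFGF replicates 1, 2 and 3. Of all genes, 8.71% were lower at that p without aFGF replicate 3. In that fit the median of the list was -0.59. Without aFGF replicate 2 it was -0.15. Pdk1, which holds pyruvate back from the mitochondria, was at 47.1, 41.4 and 69.2 against 91.7, 92.5 and 76.4 CPM (-0.72 ± 0.20). Aldoa, the aldolase of muscle and many other cells, was at 1061, 779 and 2421 against 2508, 2459 and 1357 CPM and overlapped. Respiratory chain genes were lower in 26 of 31 members with a median of -0.11, between -0.18 (without aFGF replicate 3) and -0.059 (without aFGF replicate 1). By the mean of the list, hypoxia and glycolysis genes were at 7.34, 6.99 and 7.91 log2 CPM with aFGF and 7.66, 7.63 and 8.01 with bFGF. The highest library, bFGF replicate 3, was the one with the least skeletal muscle RNA. The part of muscle in these genes was not tested.

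Skeletal muscle differed more between libraries than between groups. The fast myosin gene Myh2 was at 47.7, 63.4 and 126 CPM with aFGF and 244, 344 and 1.86 CPM with bFGF, and the calcium pump gene Atp2a1 at 368, 139 and 1816 against 2389, 2410.3 and 22.8 CPM. The bFGF group thus held both the 2 highest libraries and the lowest. The list of 29 genes had a median of -0.73, between -1.72 (without aFGF replicate 3) and -0.25 (without bFGF replicate 2), and none had an unadjusted p under 0.05. Of 15 genes of muscle regeneration, 11 were higher with aFGF and 1 had an unadjusted p under 0.05, and the median of 0.81 lay between 0.32 (without bFGF replicate 3) and 1.29 (without bFGF replicate 2). The embryonic myosin gene Myh3 was at 25.7, 31 and 28.4 against 9.86, 19.2 and 2.2 CPM and the acetylcholine receptor subunit Chrng at 3.84, 2.63 and 1.9 against 1.35, 1.22 and 0.429 CPM (1.44 ± 0.52). The adipocyte list had a median of -0.62, which turned to 0.38 without 7.4-GelMA/bFGF replicate 3, where the lipogenic gene Fasn was at 4110.0 CPM against 402 and 402 CPM in the other bFGF libraries.

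The library 7.4-GelMA/aFGF replicate 3 held 25 genes above 0.5 CPM and over 8 times the next of all 21 libraries, and the other 5 libraries of pH 7.4 held 0 such genes. At pH 8.4, bFGF replicate 2 held 106 such genes and aFGF replicate 2 held 38, so this library was not the only one. The 25 genes of 7.4-GelMA/aFGF replicate 3 were genes of cartilage, bone and marrow. The fibrillar collagen of cartilage, Col2a1, was at 200.1 CPM there and at 0.182 CPM or less in the other 5 libraries. Col10a1, the collagen of hypertrophic chondrocytes, was at 60.4 CPM against at most 0.137 CPM, and the proteoglycan gene Acan at 53.3 against at most 0.504 CPM. The bone sialoprotein gene Ibsp was at 34.2 against at most 0.114 CPM and osteocalcin (Bglap) at 4.98 against at most 0.028 CPM. Genes of marrow precursors were there too, with myeloperoxidase (Mpo) at 22.3 against at most 0.343 CPM and the eosinophil peroxidase gene Epx at 5.53 against at most 0.0286 CPM. The red cell anion exchanger Slc4a1 was at 19.2 against at most 1.71 CPM.

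**Figure D5:**
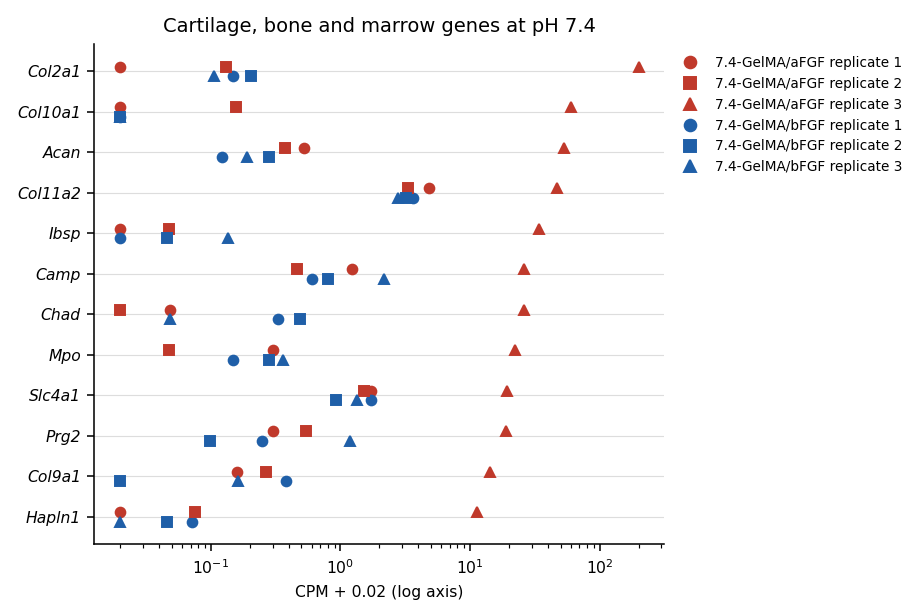
CPM plus 0.02 on a log axis of the 12 genes with the highest level among those found in 7.4-GelMA/aFGF replicate 3 alone, one point per library of pH 7.4. The red triangle, 7.4-GelMA/aFGF replicate 3, lies to the right of all other points in each gene.

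Such genes entered the group comparison only in part. 18 of the 25 failed the filter, since counts were high in 1 library only, and 7 were tested. In the cartilage list, 12 of 23 measured genes were tested, and the median log2 fold change was 2.18, which turned to -0.18 without that library. The marrow granulocyte list went from 1.92 to -0.49 and the marrow erythroid list from 0.76 to -0.57. Ctsk, the collagen-degrading protease of osteoclasts and fibroblasts, was not high in that library alone, at 179.6, 277 and 227 against 232, 243 and 184 CPM. Acan had an unadjusted p of 0.0237 with a log2 fold change of 6.27 ± 2.25, with 1 library far above the other 5. Without 7.4-GelMA/aFGF replicate 3 edgeR called 1 gene, Vdr, and 2716 genes (17.8%) had an unadjusted p under 0.05 in place of 1960.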

How the data were processed

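Total RNA of mouse skin wounds was extracted with TRIzol and sequenced after a stranded mRNA library kit. Mice had a wound on both sides of the back, and whether a library holds 1 or both wounds of a mouse is not given in the sources used here. Files deposited by the authors hold, for each library on its own, unnormalized counts of reads per gene beside FPKM values. The FPKM values deposited by the authors were recovered from count, total count and 1 length per gene. The submitters' processing notes name the genome build GRCm39, and the aligner, the counter and its strand setting are not given in the sources used here.

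The main test was edgeR 4.0.16 under R 4.3.3 on the counts of the 6 libraries, with TMM factors, filterByExpr by group, a prior count of 2 and quasi-likelihood F-tests, and over 12 libraries for each interaction with another pH. Calls needed a p under 0.05 after Benjamini-Hochberg adjustment together with a difference beyond 0.58 on the log2 scale. DESeq2 1.42.0 on counts and limma 3.58.1 on log2(FPKM + 1) or log2(FPKM + 0.1) were alternatives, with other filters, RLE factors, a fit to all 21 libraries, a block for replicate number and each library left out in turn. CPM were scaled by TMM over 21 libraries. The script was tested on simulated data, drawn gene by gene from edgeR's own estimates of spread. With 200 genes among 14901 changed by 2 or 3 on the log2 scale in either direction, edgeR recovered 173 and made 17 false calls. DESeq2 recovered 193 of 200 among 15049 and made 84. Recovery by edgeR was 68 of 87 genes at a log2 change of 2 and 105 of 113 at 3. Smaller changes were not simulated. With fewer than 4 libraries per group, an exact permutation test of a single gene could not go below 0.1.

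Total counts per library were 34362558 to 37817833, and 0 counts in a library allow a level of up to 3 counts of that total, which is 0.0793 to 0.0873 CPM and covers counting error only. Libraries of a group differed by more than counting noise.

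Named genes were, per direction, the 12 with the smallest p among those past the fold threshold, above a mean of 5 CPM and with groups that do not overlap, as well as the 5 smallest p of DESeq2, FGF pathway genes, genes the study names, up to 6 members of each of 50 gene lists and genes high in 1 library. The members and lists were chosen with earlier results of these data known. Of 18806 symbols, 18662 were found in a RefSeq table, used for names only. Some items are not reported here.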

Additional observations from a re-analysis of the deposited data

Results flagged for a closer look

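18 genes entered no comparison because they failed the filter on low counts, yet they were above control wounds in 7.4-GelMA/aFGF replicate 3. Cartilage genes among them, in CPM of that library, were Col2a1 at 200.1, Col10a1 at 60.4, Col9a1 at 14.3, Hapln1 at 11.2, Clec3a at 9.13 and Ucma at 3.35. Bone genes were Ibsp at 34.2, Bglap at 4.98, Bglap2 at 2.5, Mepe at 1.02 and Sost at 0.825. Genes of marrow granulocytes were Mpo at 22.3, Elane at 8.11, Epx at 5.53, Ms4a3 at 2.8 and Prg3 at 1.54, and those of red cell precursors Rhag at 2.14 and Btnl10 at 1.35. Control wounds reached at most 1.16 CPM in these genes (Col9a1). With edgeR, 0 genes differed in the growth factor contrast between pH 7.4 and another pH at an adjusted p under 0.05, with 941 genes (pH 6.4) and 734 genes (pH 8.4) at an unadjusted p under 0.05, and groups of 3 are too small for a test of single outlying samples.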

How the results depend on the processing

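The count of 0 genes called by edgeR at pH 7.4 stayed at 0 with RLE factors, without a filter, with at least 10 counts in every library, with robust dispersion, without a fold threshold and with limma on log2(FPKM + 1) with or without a filter. It was 264 with DESeq2, 229 with DESeq2 without Cook's cutoff and independent filtering, 12 over all 21 libraries and 1 (Barx2) with limma on log2(FPKM + 0.1). Leaving out 1 library gave 0 to 1 genes with edgeR and 60 to 1122 with DESeq2, the latter chosen after seeing the data, with 60 without 7.4-GelMA/bFGF replicate 1, 96 without 7.4-GelMA/bFGF replicate 2, 168 without 7.4-GelMA/aFGF replicate 1, 389 without 7.4-GelMA/aFGF replicate 2, 653 without 7.4-GelMA/bFGF replicate 3 and 1122 without 7.4-GelMA/aFGF replicate 3. The contrast at pH 7.4 minus that at pH 6.4 gave 28 genes with DESeq2 with or without its filters, and that minus pH 8.4 gave 4 and 15. Apart from libraries left out, the causes were not tested. No shared pattern by replicate number was seen, since the deviations of same-numbered libraries correlated at -0.187, -0.0384 and -0.32. With 3 libraries per group, 1 unusual library shapes all deviations of its group, so these values cannot exclude a shared batch. With the replicate number as a block edgeR called 0 genes, with 1526 in place of 1960 at an unadjusted p under 0.05, and 0 genes in both interactions. All 68 genes named with a log2 fold change kept their direction under each of these alternatives, which is fixed in part by choosing genes whose groups do not overlap, and 44 of them passed with DESeq2. Of the list medians, 29 moved by more than the spread between replicates when 1 library was left out and 8 under another filter or fit. Depth limits genes at low counts, and 18 of the 25 genes high in 7.4-GelMA/aFGF replicate 3 failed the filter.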
